A study of Rattus norvegicus with 9 samples.

Results

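The cluster of miR-144 and miR-451 and the separate miR-486 were followed in the serum of rats of a Control group and of rats given rotenone. The members were the rows of the series' count matrix named miR-451-5p, miR-144-3p, miR-144-5p and miR-486, which are 4 of 567 miRNAs. All 4 had counts in each of the 9 libraries, and all 4 passed the filter on low counts that left 294 miRNAs for testing. The groups were Control, EPD (early Parkinson's disease, 10 days of rotenone at a daily dose of 2 mg per kg) and LPD (late Parkinson's disease, more than 40 days at the same daily dose), each with 3 libraries from male Wistar rats labelled as wild type. Rotenone is a pesticide that blocks complex I of the mitochondrial respiratory chain, and it was injected into the peritoneum as a model of Parkinson's disease. All 9 samples, those of Control too, carry 1 treatment label and 1 treatment text, so the sources used here do not say how Control was treated. Serum gathers miRNAs from blood cells and many organs.

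miR-451 and miR-144 are made from neighbouring hairpins of 1 primary transcript, which the erythroid factor GATA1 switches on in mouse and zebrafish. miR-451 is the best known red cell miRNA and is cut by Argonaute 2 and not by Dicer, while miR-144 takes the usual Dicer route and yields 2 arms. miR-486 is made from a hairpin inside the ankyrin gene Ank1 and is abundant in red cells and in striated muscle. In serum these miRNAs are watched as a sign of red cells broken during or before sampling, and the ratio of miR-451 to miR-23a, a miRNA little affected by red cell lysis, is a common haemolysis index.

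The mature sequences are shown because they tell the 3 cluster members apart and show where the 2 hairpins differ. They are RefSeq sequences (build GRCr8), which held 3 of the 4 members, printed 5′ to 3′ with the seed (bases 2 to 8) in capitals.
miR-451-5p: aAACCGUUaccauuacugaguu
miR-144-3p: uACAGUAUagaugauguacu
miR-144-5p: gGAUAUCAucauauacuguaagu
In the hairpins the capitals mark the mature arms, miR-451-5p alone in Mir451a and both arms of miR-144 in Mir144.
Mir451a: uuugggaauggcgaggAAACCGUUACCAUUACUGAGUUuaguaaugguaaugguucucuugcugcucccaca
Mir144: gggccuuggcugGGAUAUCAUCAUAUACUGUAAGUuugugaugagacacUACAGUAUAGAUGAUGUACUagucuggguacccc
Both hairpins lie on the plus strand of chromosome 10 and are separated by 89 bases. In the structure that RNAfold predicted for Mir451a, 17 uninterrupted pairs ended in a loop of 4 bases, and all 4 loop bases belonged to miR-451-5p. In Mir144 the predicted loop of 6 bases held 0 bases of either arm. The 3 seeds differ from each other, and 0 other mature rat miRNAs of the table carry any of them. The nearest seed with many reads is that of miR-101a-3p and miR-101b-3p, which differs from the seed of miR-144-3p by U8C (positions counted from the 5′ end of the mature miRNA, the base of miR-144-3p first).

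The libraries differed in depth, which bears most on the rarer members. Low depth was shared by all LPD libraries and by no others. A difference of LPD therefore cannot be told apart from this library difference, for miR-486 too. The Control and EPD libraries held 1108167 to 1668807 counts, and the LPD libraries 305019, 209895 and 132609. The LPD libraries had counts for 184, 153 and 197 miRNAs, against 424 to 481 in the others. If their serum had the average Control and EPD profile, 36.7, 49.1 and 12.3 counts stood for each sequenced molecule in LPD, against 1.07 to 3.09 elsewhere. Levels are given as CPM, counts scaled to a common library size with TMM factors. Control 2 stood apart by the hepatocyte miRNA miR-122-5p, at 44.3% of its counts against at most 5.14% in any other library.

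In Control the 4 members differed widely in level. miR-486 had 9472, 7068 and 9529 CPM in Control, and it was the steadiest member, with a coefficient of variation of 16.2%. miR-451-5p came next with 616, 466 and 799 CPM. miR-144-5p had 121, 61.3 and 234 CPM and miR-144-3p 43.2, 66.4 and 148 CPM, so the 2 arms of miR-144 overlapped and their order was not settled by these libraries. miRNA reads depend on how well each end is ligated, so the order of the read levels need not be the order of the molecules. Together the 4 members took 1.14, 0.512 and 1.21% of the Control counts, and miR-486 made up 92.4, 92.2 and 89.0% of that sum. The rest of a library holds the haemolysis partner miR-23a-3p at 8353 ± 2799 CPM in Control (SD, n = 3), a level close to that of miR-486.

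**Figure D1:**
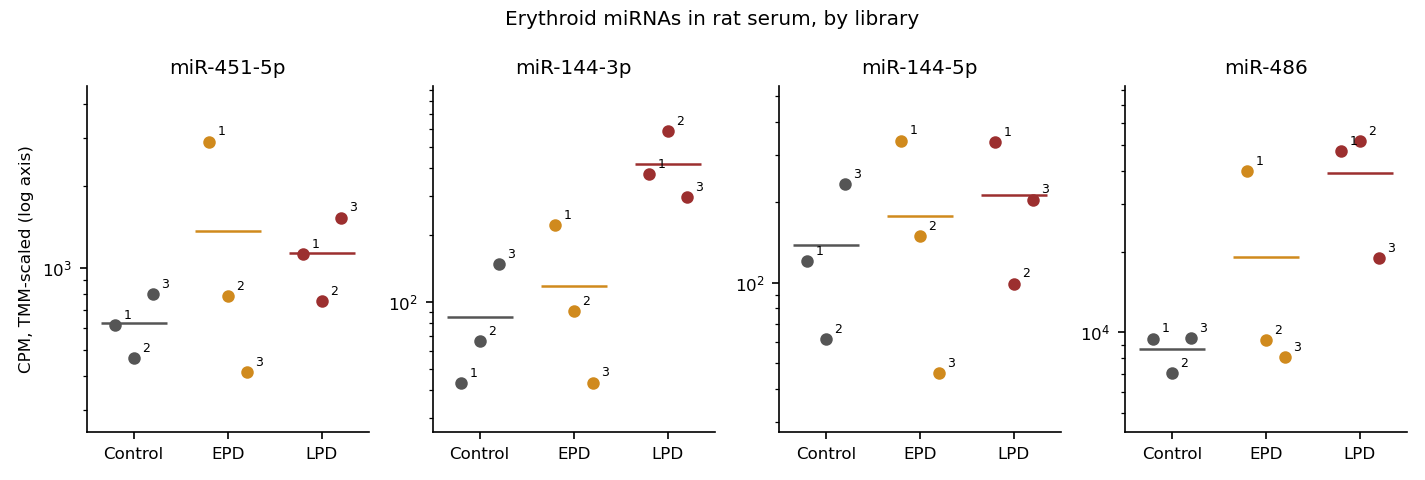
CPM of each member (log axis) in the 3 libraries of Control, EPD and LPD. Points carry the replicate number and lines are group means. EPD 1 lies above the other EPD libraries in all 4 panels, and all LPD libraries lie above all Control libraries for miR-144-3p and miR-486.

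The main difference was found in LPD, where miR-486 rose. It had 47260, 51689 and 18948 CPM in LPD, against 9472, 7068 and 9529 CPM in Control. Every LPD library lay above every Control library, and LPD 3 was the lowest of its group. The group means were 39299 ± 17763 CPM in LPD and 8690 ± 1405 CPM in Control (SD, n = 3 each), a 4.52-fold difference (log2 fold change 2.18, SE 0.65, adjusted p = 0.0264, edgeR's quasi-likelihood test with Benjamini-Hochberg adjustment over 294 miRNAs). In that test 4.42% of the miRNAs were called higher in LPD and 32.7% lower. The split was 13 higher and 96 lower, but 16 and 22 when only the 124 miRNAs with counts in every library were fitted, 26 and 94 with DESeq2, and 8 and 27 on counts per estimated molecule. The call was lost without Control 1, 2 or 3 or LPD 2 (adjusted p = 0.0655 to 0.0796) and with limma-voom (adjusted p = 0.0534), while the fold change stayed between 1.97 and 2.75 on the log2 scale in all 18 alternatives. Ranked by counts within its library, miR-486 stood at 5, 3 and 6 in LPD, against 26, 32 and 23 in Control.

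miR-144-3p, the arm of miR-144 whose targets are better known, had 374, 585 and 297 CPM in LPD, against 43.2, 66.4 and 148 CPM in Control. Its LPD libraries also lay above all Control libraries, and the log2 fold change of 2.28 (SE 0.80) was of the size of that of miR-486. It missed the threshold (adjusted p = 0.0511), and passed in 8 of 18 alternatives, with adjusted p between 0.00197 and 0.154 over all of them. Those 8 included the fits without Control 3, EPD 1, EPD 3, LPD 1 or LPD 3 (adjusted p = 0.0349 to 0.0489). Among the 294 miRNAs its fold change ranked 4 from the top and that of miR-486 ranked 6.

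The 2 remaining cluster members had smaller values. miR-451-5p had 1126, 756 and 1530 CPM in LPD, against 616, 466 and 799 CPM in Control, and the groups overlapped by LPD 2 and Control 3. Its log2 fold change was 0.86 (SE 0.67, adjusted p = 0.357). miR-144-5p had 335, 99.0 and 204 CPM in LPD, against 121, 61.3 and 234 CPM in Control (0.62, SE 0.89, adjusted p = 0.631), and here Control 3 exceeded 2 of the 3 LPD libraries. The value was 1.18 without Control 3, 0.99 without LPD 2, 0.36 without Control 2 and 0.25 without LPD 1. An adjusted p above the threshold does not show that these levels were equal.

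Of the 4 members, 1 was called in LPD against Control, where 37.1% of all tested miRNAs were called in either direction. The members had a median log2 fold change of 1.52, beside -1.04 over all 294 and -0.21 over the 124 miRNAs with counts in every library. The CPM ranges of the groups were apart, with LPD higher, for 2 of 4 members and for 6.46% of all tested miRNAs. The members are among those 124. A miRNA with a count of 0 in any LPD library cannot lie wholly above Control, so 6.46% understates the share among those 124.

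**Figure D2:**
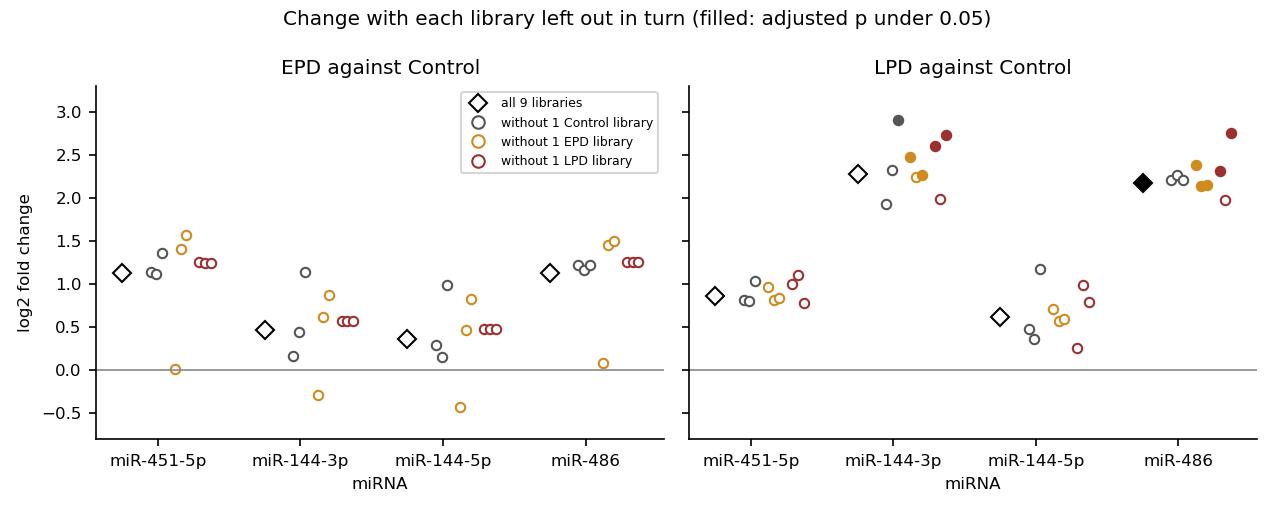
log2 fold change of each member in EPD against Control and LPD against Control, with all 9 libraries (diamonds) and with each library left out in turn (circles coloured by the group of that library). Filled symbols passed the adjusted p of 0.05. The lowest circle of each member in EPD against Control is the fit without EPD 1.

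The estimated molecules set a limit on what LPD can show for the cluster. Divided by the counts per molecule of its library, miR-486 stood at 389, 234 and 233 molecules in LPD. miR-451-5p stood at 9.27, 3.42 and 18.8 molecules, miR-144-3p at 3.08, 2.65 and 3.65, and miR-144-5p at 2.75, 0.448 and 2.51. In Control the same estimate gave 10893.5, 1791 and 13167 molecules for miR-486 and 708, 118 and 1105 for miR-451-5p. It gave 49.6, 16.8 and 204 for miR-144-3p and 139, 15.5 and 323 for miR-144-5p. By this estimate a single molecule in LPD is worth 122, 221 and 81.3 CPM. That is above the level of miR-144-3p in 2 of 3 Control libraries in LPD 1 and 3 and in all 3 in LPD 2. The size of the miR-144-3p difference is therefore poorly determined, whereas miR-486 kept its call on counts divided by the estimate (log2 fold change 2.07, adjusted p = 0.0253). The estimate assumes that LPD serum has the mean profile of Control and EPD. The profile was not tested as a whole, but 37.1% of tested miRNAs were called in LPD against Control and 36.7% in LPD against EPD. The estimate is also rough, because a miRNA with counts cannot come from less than 1 molecule. For miR-144-5p in LPD 2 it stood at 0.448.

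**Figure D3:**
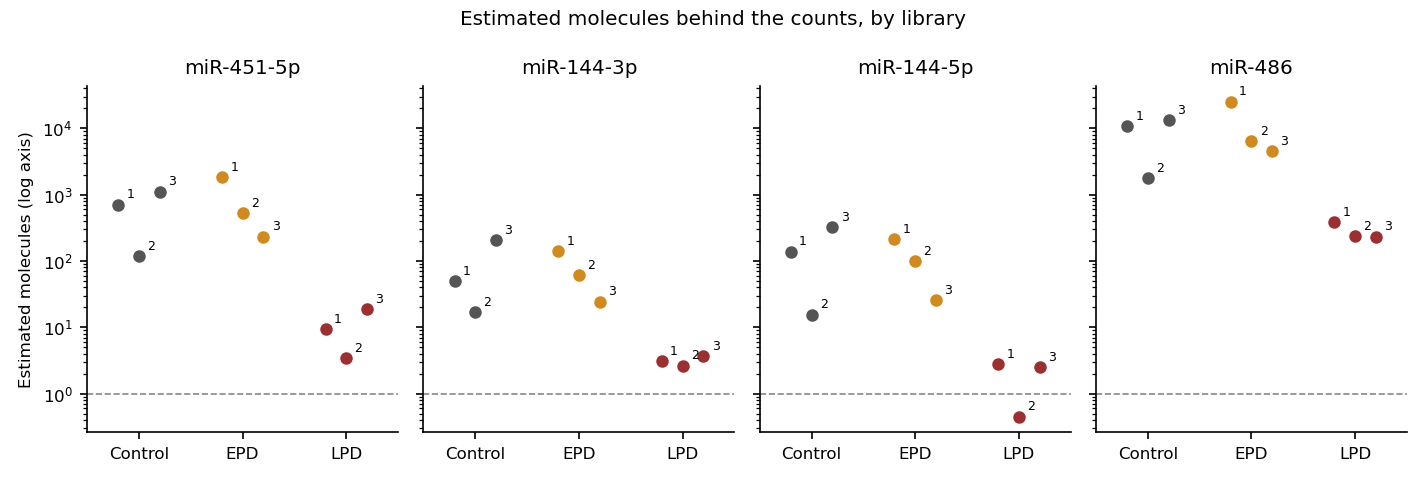
Estimated molecules behind the counts of each member (log axis), by group, with the replicate number beside each point. The dashed line marks 1 molecule. The LPD libraries stand at 233 or more for miR-486 and at 3.65 or fewer for both arms of miR-144.

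After 10 days of rotenone the 4 members were high in 1 library, EPD 1. miR-451-5p had 2916, 787 and 414 CPM in EPD, against 616, 466 and 799 CPM in Control. miR-486 had 39743, 9371 and 8096 CPM in EPD, against 9472, 7068 and 9529 CPM in Control. In both, EPD 1 exceeded every Control library and EPD 2 and EPD 3 fell within or near the range of Control. The same held for miR-144-5p, with 340, 149 and 45.8 CPM in EPD, against 121, 61.3 and 234 CPM in Control. miR-144-3p had 221, 90.9 and 43.3 CPM in EPD, against 43.2, 66.4 and 148 CPM in Control.

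None of the members passed in EPD against Control, and edgeR called 0% of the 294 miRNAs. The CPM ranges of EPD and Control overlapped for all 4 members, and EPD stood wholly above Control for 4.76% of all tested miRNAs. At an unadjusted p under 0.05 there were 11 miRNAs, and DESeq2 called 1 and limma-voom 0. The log2 fold changes were 1.13 (SE 0.67) for miR-451-5p, 1.13 (SE 0.63) for miR-486, 0.46 (SE 0.77) for miR-144-3p and 0.36 (SE 0.88) for miR-144-5p, each with adjusted p = 0.995. Without EPD 1 these values were 0.02, 0.08, -0.29 and -0.43. The members' median log2 fold change was 0.80 with all libraries, beside -0.05 over all tested miRNAs.

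EPD 1 also had the highest sum of other red cell miRNAs. The summed level of the 17 listed ones was 416467, 187815 and 179061 CPM in EPD, against 180708, 102597 and 191801 CPM in Control. miR-16-5p made up 84.4% of the sum in EPD 1. Without it the sums were 64811, 34790 and 34451 CPM in EPD, against 32156, 25686 and 33223 CPM in Control. EPD 1 was the highest EPD library for 12 of the 17 miRNAs, and for 10 of these it also lay above all Control libraries. The same was not counted over all tested miRNAs, so these counts do not show a trait of red cell miRNAs. For the other 5 it was not the highest, among them miR-182 with 1715, 2220 and 2164 CPM in EPD. The sums of the leukocyte list were 82564, 95980 and 85375 CPM in EPD, against 63856, 70382 and 70737 CPM in Control. Those of the platelet list were 101684, 131553 and 126505 CPM in EPD, against 148260, 136941 and 135090 CPM in Control. EPD 1 was not the highest EPD library in either. In all EPD libraries, not in EPD 1 alone, the leukocyte sum lay above all Control libraries and the platelet sum below them. The part of red cell lysis in the values of EPD 1 was not tested. In serum, more red cells broken and more of a miRNA per red cell cannot be told apart.

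Between the treated groups the estimates differed from member to member, with none past the threshold. miR-144-3p had 374, 585 and 297 CPM in LPD, against 221, 90.9 and 43.3 CPM in EPD, with no overlap (log2 fold change 1.82, SE 0.79, adjusted p = 0.107). miR-486 was higher by 1.04 (SE 0.63, adjusted p = 0.237), and EPD 1 lay above LPD 3. For miR-451-5p the log2 fold change was -0.27 (SE 0.66, adjusted p = 0.780) and for miR-144-5p 0.26 (SE 0.89, adjusted p = 0.844). None of the 4 passed in LPD against EPD, where 36.7% of all tested miRNAs were called, 4.08% as higher. LPD stood wholly above EPD for 1 of 4 members and for 6.8% of all tested miRNAs, a share kept low by miRNAs without counts in an LPD library. Without EPD 1, miR-486 passed (2.30, SE 0.53, adjusted p = 0.0219) and miR-451-5p stood at 0.95 (adjusted p = 0.191). miR-451-5p turned to values between 0.02 and 0.13 with DESeq2, with DESeq2's size factors in edgeR, with limma-voom and when miRNAs lacking a count in any library were left out, so it has no settled direction here. LPD against Control and EPD against Control share the Control libraries, and all 3 comparisons share groups.

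Ratios between members of 1 library do not depend on how libraries are scaled. For each of 5 ratios and 3 pairs of groups, the mean log2 ratios were compared by an exact two-sided permutation test, 15 in all. With 3 libraries against 3 it cannot give a p under 0.1, and the smallest adjusted p reached was 0.3. Counts had 0.5 added before the ratio was taken.

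miR-486 and miR-451-5p stood in a similar proportion in all Control and EPD libraries, and 2 of the 3 LPD libraries departed from it. There were 41.9, 68.2 and 12.4 counts of miR-486 for each count of miR-451-5p in LPD, against 15.4, 15.1 and 11.9 in Control. In EPD there were 13.6, 11.9 and 19.6, so that EPD 1, high in both miRNAs, had a proportion within the range of Control. LPD 1 and LPD 2 stood above all other libraries, while LPD 3 lay within the range of Control. In LPD 1 and LPD 2 the miR-451-5p counts rest on an estimated 9.27 and 3.42 molecules. The mean log2 ratio was higher in LPD than in Control by 1.22 (5.04 ± 1.27 in LPD and 3.81 ± 0.21 in Control, SD, n = 3 each, exact p = 0.3, adjusted p = 0.5). It was 1.93 without LPD 3, which lowered it, and 0.70 without LPD 2, which raised it most. In EPD it differed from Control by 0.06 (exact p = 1, adjusted p = 1).

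Within the cluster, miR-144-3p was highest relative to miR-451-5p in the 3 LPD libraries. There were 0.333, 0.774 and 0.196 counts of miR-144-3p for each count of miR-451-5p in LPD, against 0.0707, 0.144 and 0.185 in Control. In EPD there were 0.0760, 0.116 and 0.105. The LPD libraries lay above all others, LPD 3 by a small margin over Control 3. Set against Control, the mean log2 ratio of LPD was 1.58 higher, and set against EPD 1.92 higher (exact p = 0.1 for both, the smallest that 3 against 3 can give, adjusted p = 0.3 for both). LPD 2 weighed most on both, which were 1.05 and 1.39 without it. Its ratio rests on an estimated 2.65 molecules of miR-144-3p and 3.42 of miR-451-5p.

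Between the miR-144 arms, the 5p arm was lowest relative to the 3p arm in LPD. There were 0.894, 0.172 and 0.692 counts of miR-144-5p for each count of miR-144-3p in LPD, against 2.78, 0.924 and 1.58 in Control. In EPD there were 1.53, 1.63 and 1.06. The 3 LPD libraries lay below all others, LPD 1 only just below Control 2. The log2 ratio averaged -1.08 ± 1.28 over the LPD libraries and 0.67 ± 0.79 over those of Control, with EPD at 0.47 ± 0.34 (SD, n = 3 each). These are differences of -1.75 from Control and -1.54 from EPD (exact p = 0.1 for both, adjusted p = 0.3 for both). LPD 2 carried much of this, and the differences were -1.02 and -0.81 without it. Its miR-144-5p value rests on 22 counts and an estimated 0.448 molecules, and neither arm had more than 3.65 estimated molecules in any LPD library.

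**Figure D4:**
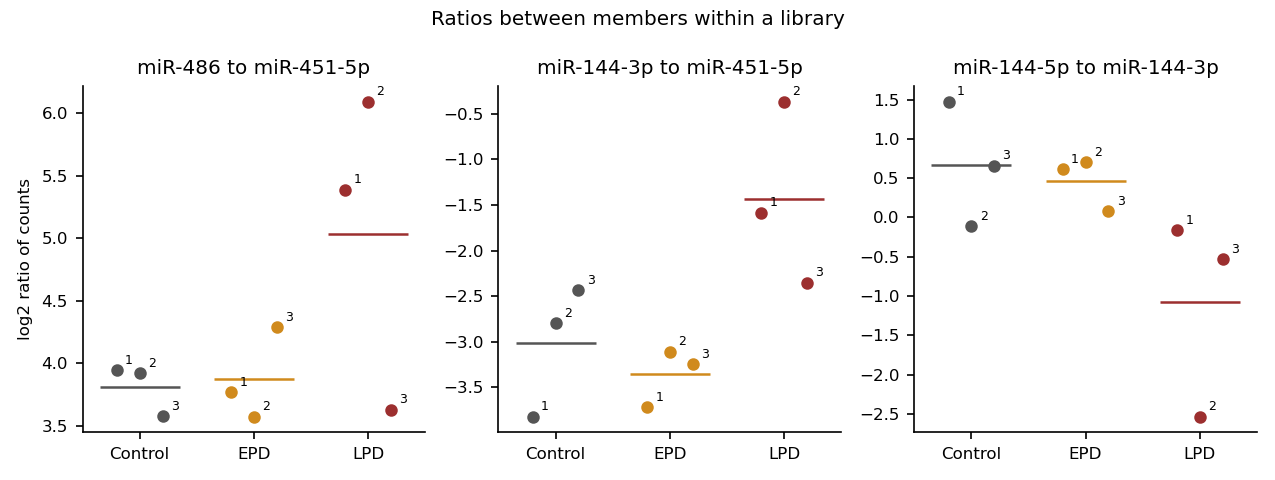
log2 ratio of counts of miR-486 to miR-451-5p, miR-144-3p to miR-451-5p and miR-144-5p to miR-144-3p in each library, with the replicate number and the group mean (line). LPD 1 and 2 stand above all other libraries in the first panel, and all LPD libraries stand apart from Control and EPD in the other panels.

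The red cell index gave less of a difference than the same index built on miR-486. The log2 ratio of miR-486 to miR-23a-3p was 2.34, 2.72 and 1.04 in LPD, against 0.20, -0.66 and 0.77 in Control. All LPD libraries lay above Control, by 1.93 in the mean (exact p = 0.1, adjusted p = 0.3). The usual index, with miR-451-5p over miR-23a-3p, was -3.05, -3.37 and -2.58 in LPD, against -3.75, -4.58 and -2.81 in Control, with overlap (0.71 in the mean, exact p = 0.3, adjusted p = 0.5). That difference was 0.27 without Control 2 and 1.16 without Control 3. With miR-24-3p as the partner it was 1.03 and with miR-191a-5p, itself lower in LPD, 3.19, and the groups no longer overlapped with either (exact p = 0.1 for both). The index on miR-486 was 2.26 and 4.41 higher in LPD with these partners. EPD 1 had 2.42 with miR-486 and -1.35 with miR-451-5p, the highest value of the usual index in any library. miR-23a-3p itself had 8791 ± 830 CPM in LPD and 8353 ± 2799 CPM in Control (SD, n = 3 each).

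The opposite arm of the miR-451 hairpin was not a member but bears on the cluster, and it was chosen after its values were seen. Its 3p arm, miR-451-3p, had 0, 0 and 0 counts in LPD, against 7, 0 and 13 in Control. The EPD libraries had 28, 4 and 13. The limit that a count of 0 allows, 3 counts, stands for 9.94, 13.5 and 19.8 CPM in LPD and covers counting error alone, while 1 estimated molecule is worth 122, 221 and 81.3 CPM there. Both are above the 5.70, 0 and 7.50 CPM of Control. Its absence from LPD is therefore not detectable as a difference at this depth. EPD 1, the library with the most miR-451-5p, also had the most miR-451-3p.

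Of 17 other red cell miRNAs listed and tested, 1 was higher and 5 were lower in LPD against Control, and 11 did not pass. Over all tested miRNAs 4.42% were higher and 32.7% lower, so these counts are near the background. The fold change lay above 0 for 4 of the 17 and below it for 13 (median log2 fold change -0.92, beside -1.04 over all tested miRNAs). miR-92a-3p, common in red cells, had 6029 ± 2359 CPM in LPD and 2138 ± 230 CPM in Control (SD, n = 3 each, log2 fold change 1.50, SE 0.36, adjusted p = 0.0102). miR-16-5p, rich in red cells and the most abundant miRNA in 8 of the 9 libraries (rank 2 in Control 2, after miR-122-5p), had 283010 ± 59259 CPM in LPD and 128014 ± 44539 CPM in Control (SD, n = 3 each, 1.14, SE 0.43, adjusted p = 0.0660). Lower were miR-183-5p (-3.14, SE 0.76, adjusted p = 0.0104) and miR-182 (-2.19, SE 0.55, adjusted p = 0.0126), which come from 1 cluster and did not pass with limma-voom (adjusted p = 0.112 and 0.0991), and miR-185-5p (-1.66, SE 0.56, adjusted p = 0.0429). The call of miR-185-5p held in 3 of 18 alternatives and was lost without any Control or EPD library and without LPD 1 or LPD 3 (up to 0.208 over all of them). miR-106b-5p and miR-96-5p were called lower too, with no count in 2 and 3 of the LPD libraries. They averaged 32.8 and 22.9 CPM in Control, less than the 81.3 to 221 CPM that 1 estimated molecule is worth in LPD, so the depth of LPD limits these calls. In EPD against Control 0 of the 17 passed, and 10 had a value above 0 (median 0.15).

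**Figure D5:**
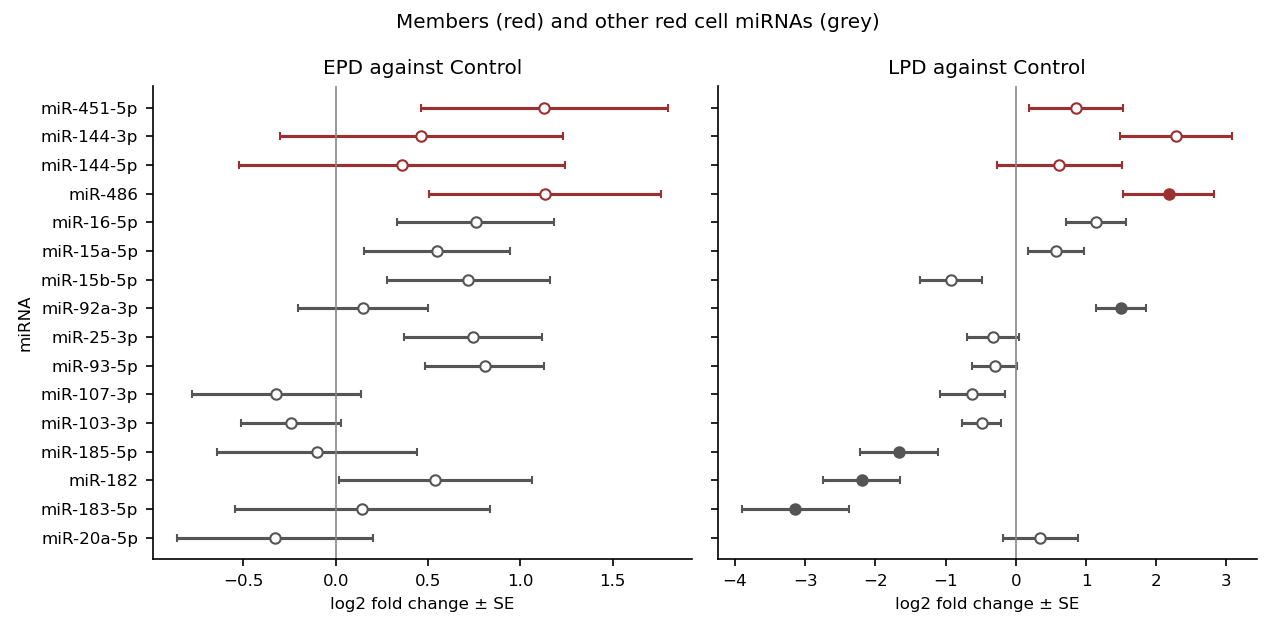
log2 fold change with its SE in EPD against Control and LPD against Control for the 4 members (red) and the 12 other listed red cell miRNAs with counts in every library (grey). Filled symbols passed the adjusted p of 0.05. In LPD against Control miR-486 and miR-92a-3p stand to the right, and miR-185-5p, miR-182 and miR-183-5p to the left.

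Of the miRNAs that are repressed as red cells mature, 1 of 7 was higher and 1 lower in LPD against Control, and 3 of the 7 had a fold change above 0. miR-223-3p, a myeloid and platelet miRNA, had a log2 fold change of 1.17 (SE 0.39, adjusted p = 0.0418) and miR-191a-5p of -2.33 (SE 0.45, adjusted p = 0.00522). The call of miR-223-3p held in 9 of 18 alternatives. Leaving out LPD 1, LPD 2, EPD 2, EPD 3, Control 1 or Control 3 ended it (up to 0.138 over all alternatives). Of other cells, the platelet list had 2 of 7 higher and 1 lower, the leukocyte list 0 of 7 higher and 2 lower, the liver list 0 of 5 higher and 2 lower and the muscle list 0 of 4 higher and 1 lower. With so few members a list, these counts are not told apart from the 4.42% higher and 32.7% lower over all tested miRNAs. Muscle is the other known source of miR-486. The summed muscle miRNAs had 1067, 715 and 10714 CPM in LPD, against 7709, 1423 and 4138 CPM in Control. The part of muscle in the miR-486 values was not tested.

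The patterns most like those of the members were described by Pearson's r of log2 CPM over the 9 libraries, among the other 120 miRNAs with counts in all of them. The libraries share depth and scaling, so these are descriptions. Closest to miR-486 were miR-16-5p (r = 0.927), miR-92a-3p (0.911), miR-1306-5p (0.833), let-7b-5p (0.832) and miR-106b-3p (0.807). Closest to miR-144-3p were miR-92a-3p (r = 0.851), miR-16-5p (0.787), miR-126a-5p (0.761), miR-6216 (0.756) and miR-10b-5p (0.745). For miR-451-5p they were miR-16-5p (r = 0.739), miR-155-5p (0.585), miR-106b-3p (0.575), miR-26b-5p (0.501) and miR-142-5p (0.464). For miR-144-5p they were miR-155-5p (r = 0.722), miR-20a-5p (0.700), miR-16-5p (0.669), miR-301a-3p (0.587) and miR-26b-5p (0.490). miR-16-5p was thus among the nearest 5 of every member.

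Among the members themselves, miR-451-5p was nearest to miR-144-5p (r = 0.845 over 9 libraries) and miR-144-3p to miR-486 (0.882). miR-451-5p and miR-486 had r = 0.656, and the 2 arms of miR-144 had r = 0.582.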

How the data were processed

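Small RNA of rat serum was sequenced in 9 libraries. Per the labels' protocols, extraction used a miRNeasy kit for serum and library preparation a QIAseq miRNA kit. The deposited values are read counts per mature miRNA. The submitters' processing notes give the build mRatBN7.2. Which aligner and counter the authors used, and whether molecular identifiers were collapsed, is not given in the sources used here. Shares and limits thus cover counting error only. Of the values of the series matrix, 0 differed from those of the single libraries. Groups and replicate numbers came from sample titles. No source says which animals the libraries came from, so p-values describe only the spread among these libraries, which may be technical.

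Counts were filtered with edgeR's filterByExpr (at least 10 counts, 15 in total), scaled by TMM and fitted over 3 groups with edgeR 4.0.16 (robust quasi-likelihood, Benjamini-Hochberg over 294 miRNAs, threshold 0.05) in R 4.3.3. The test was also run on simulated counts with the totals of these libraries. These held none of the repeated counts per molecule estimated for LPD, so the run does not vouch for the LPD calls. Alternatives used DESeq2 1.42.0, limma 3.58.1, other scalings and filters, 2 groups only, a replicate block, counts per estimated molecule and each library left out. The molecule number of a library is the one at which Poisson sampling of the mean Control and EPD shares leaves as many miRNAs without counts as were seen. Hairpins were folded with RNAfold 2.7.2. The members and lists were chosen with earlier results of these data known. Named were the 4 members, up to 4 called miRNAs per list with counts in all libraries, by smallest p, and the 5 most correlated per member. miR-16-5p, miR-106b-5p and miR-96-5p are named in addition.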

Additional observations from a re-analysis of the deposited data

How the results depend on the processing

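Depth limits the 3 cluster members in LPD, where few estimated molecules stand behind each value, and 3 libraries a group limit all tests. Only the LPD libraries were this shallow, so for every member, miR-486 too, group and depth cannot be told apart. Over 18 alternatives miR-451-5p and miR-144-5p passed in no comparison. Values of log2 fold change follow. In LPD against Control, miR-144-3p passed with DESeq2 (2.60), with its size factors in edgeR (2.60) and with miRNAs lacking counts in some library left out (2.55), and ranged from 1.93 to 2.90 with a library left out. miR-486 missed with limma-voom (2.08) and ranged from 1.97 to 2.75. In LPD against EPD, miR-144-3p passed with DESeq2 (2.18) and with that stricter filter (2.18), and miR-486 ranged from 0.65 to 2.30 with a library left out. miR-451-5p turned positive with DESeq2 (0.025), its size factors (0.024), limma-voom (0.13) and the stricter filter (0.033), and ranged from -0.73 to 0.95. miR-144-5p ranged from -0.24 to 1.14, and from 0.25 to 1.18 in LPD against Control. In EPD against Control, miR-144-3p ranged from -0.29 to 1.14 and miR-144-5p from -0.43 to 0.99, and was -0.081 with limma-voom.

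miRNAs called in EPD against Control numbered 0, and 1 with DESeq2, with the stricter filter, and without Control 2 (0 to 1 with a library left out). Those in LPD against Control numbered 109, but 38 with the stricter filter, 52 in the 2 groups alone and 35 on counts per molecule. Those in LPD against EPD numbered 108, but 35, 67 and 43. The median log2 fold change of all tested miRNAs in LPD against Control was -1.04, and with the other settings on all 9 libraries it ran from -2.34 (no filter) over -1.74 (limma-voom) and -0.83 (DESeq2's size factors) to 0.04 (stricter filter).

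Of the log2 ratios, the usual index of miR-451-5p over miR-23a-3p in LPD against EPD (-0.0036) was 0.0029 with 2 counts added, 3.13 with miR-191a-5p and 0.27 with miR-24-3p as the partner, and ranged from -0.51 to 0.82. In EPD against Control it ranged from -0.11 to 1.22, that of miR-486 to miR-451-5p from -0.14 to 0.22, and that of the miR-144 arms from -0.60 to 0.20.

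The sources used here do not say that replicate numbers pair the samples. Deviations of libraries with the same number correlated by -0.188 to 0.281. Libraries with different numbers were not compared, so these values cannot show whether samples were paired. With replicates blocked by number, miR-486 in LPD against Control stood at 2.05 (adjusted p = 0.0259), and the calls of the members did not change. The block gave 101 calls in LPD against Control and 101 in LPD against EPD.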
